A study of Mus musculus with 12 samples.

Results

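The genes of glycolysis and of the hypoxia response were examined in whole lungs of neonatal mice, as 33 gene symbols chosen by name from the 52550 genes of the count table: glucose and lactate transporters, the enzymes from hexokinase to lactate dehydrogenase, the kinases that regulate them, the 3 HIF alpha subunits, 2 HIF prolyl hydroxylases and 4 further HIF targets. All 33 were found. They gave 34 rows, because Aldoa stands under 2 gene IDs, and all 34 were among the 15885 protein-coding genes with enough counts to be tested. The rule was a list of symbols and set no threshold on a measured value.

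The lungs came from mice on a C57BL/6J background that were either wild type (WT, Adm+/+) or Adm+/-, with 1 functional copy of Adm, the gene of the vasodilator peptide adrenomedullin. The mutant allele had been made on a 129/SvEv background and backcrossed for 12 generations, and every cell of the Adm+/- mice carries it. Pups of each genotype received PBS or 6 mg/kg of LPS (lipopolysaccharide from Escherichia coli O55:B5, a bacterial endotoxin), injected intraperitoneally once a day on postnatal days 3 to 5, with lungs collected 6 h after injection 3. Each of the 4 groups (WT PBS, WT LPS, Adm+/- PBS and Adm+/- LPS) holds 3 libraries, each 1 sample by its label. Nothing in the labels ties the samples to litters, so the p-values measure the spread between these libraries.

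Glycolysis splits glucose into pyruvate in the cytosol and yields ATP without oxygen, and pyruvate is then either burned in mitochondria or turned into lactate and exported. Hypoxia-inducible factors (HIFs) are pairs of an alpha and a beta subunit that bind DNA and switch on many of these genes. In the presence of oxygen, prolyl hydroxylases mark the alpha subunits for destruction. Activated macrophages and neutrophils also raise glycolysis, and endotoxin can induce Hif1a transcripts where oxygen is normal.

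Total counts ranged from 22382535 to 38062873 per library, and the sparsest member row held at least 17 counts in every library. Lung identity was plain, with the type II pneumocyte gene Sftpc at 7626 to 11600 CPM (counts scaled to a common library size with TMM factors) and the endothelial gene Cdh5 at 558 to 768 CPM. The WT LPS libraries also held more skeletal muscle markers, summed at 1110 to 2710 CPM against 69.7 to 119 CPM in the other groups. WT LPS replicates 9 and 11 held more squamous epithelium markers too (3557 and 1898 CPM). This limit bears on every WT LPS value and is taken up further on. Adm was low, at 3.96, 7.08 and 4.57 CPM in WT PBS, 4.58, 2.87 and 3.62 CPM in Adm+/- PBS, 7.76, 8.15 and 4.46 CPM in WT LPS and 3.74, 6.28 and 3.92 CPM in Adm+/- LPS. The genotypes overlapped, and the log2 difference of -0.50 ± 0.32 (SE) with PBS and -0.55 ± 0.31 with LPS did not pass the test (edgeR adjusted p = 0.999 and 0.48). WT PBS replicate 5 and Adm+/- PBS replicate 6 stood apart, with 16.6% and 13.3% of their counts on the non-coding gene Gm26917 against 5.42% to 7.40% in the other 10 libraries, so member counts and several fold changes are also given without them. The summed level of 10 fibroblast markers was 33800 and 23700 CPM in these 2 libraries against 9320 to 14400 CPM in the other 10, and the part of this in their member levels was not tested.

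The members chosen for sequence display are the 4 that passed the test in both genotypes with the smallest p-values: Slc16a3 (the lactate exporter MCT4), Slc2a1 (the glucose transporter GLUT1), Hk2 (the inducible hexokinase) and Ndrg1 (a stress-induced HIF target). A RefSeq promoter window (build GRCm38.p6, 250 bases before to 50 after a transcript start) was matched for 30 of the 33 symbols, and not for Slc2a3, Epas1 and Ndrg1. The 3 windows below are written 5′ to 3′ on the strand of the gene. They lie at chr11:120948817-120949116 on the plus strand (Slc16a3), chr4:119108495-119108794 on the plus strand (Slc2a1) and chr6:82774405-82774704 on the minus strand (Hk2). Capitals mark the core of the HIF response element, ACGTG or GCGTG, read on either strand.
Slc16a3: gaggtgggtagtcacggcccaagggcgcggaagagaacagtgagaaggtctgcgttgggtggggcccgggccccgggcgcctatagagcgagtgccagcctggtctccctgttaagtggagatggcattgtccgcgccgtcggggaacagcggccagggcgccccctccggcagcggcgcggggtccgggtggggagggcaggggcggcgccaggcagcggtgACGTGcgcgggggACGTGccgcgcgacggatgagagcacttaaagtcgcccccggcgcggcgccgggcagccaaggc
Slc2a1: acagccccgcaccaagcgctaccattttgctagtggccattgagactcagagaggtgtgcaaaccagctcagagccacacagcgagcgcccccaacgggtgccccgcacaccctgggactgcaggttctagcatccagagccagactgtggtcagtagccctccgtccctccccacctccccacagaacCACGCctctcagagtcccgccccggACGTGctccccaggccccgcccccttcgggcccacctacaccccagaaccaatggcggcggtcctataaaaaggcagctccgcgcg
Hk2: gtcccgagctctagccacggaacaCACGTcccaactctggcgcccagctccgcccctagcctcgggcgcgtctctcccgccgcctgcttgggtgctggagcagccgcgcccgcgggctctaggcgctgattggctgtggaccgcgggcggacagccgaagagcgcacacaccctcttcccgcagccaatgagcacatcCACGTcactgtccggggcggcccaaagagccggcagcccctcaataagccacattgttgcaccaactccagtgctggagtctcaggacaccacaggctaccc
Slc16a3 and Hk2 held 2 ACGTG cores each and Slc2a1 held 1 ACGTG and 1 GCGTG. None of the 3 windows held CACGTG, the E-box that contains ACGTG on both strands. ACGTG was found in 19.6% of all 32851 windows of this table, GCGTG in 32.4%, either in 43.8% and CACGTG in 7.15%. Of the 43 windows of the 30 members, 35 (81.4%) held either core, 23 held ACGTG and 23 held GCGTG. Several windows of 1 gene overlap, base composition was not matched, and a match is a run of letters, not a site shown to be bound.

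LPS exposure raised a set of transporters, first-step enzymes, regulators and HIF targets in both genotypes. In WT lungs 12 of the 34 rows rose and 0 fell. A call required an edgeR quasi-likelihood adjusted p below 0.05, over all 15885 genes, and a log2 fold change beyond 0.5 either way. Among all genes tested 10.5% rose and 7.09% fell by this rule. The median log2 fold change was 0.37 over the members and 0.00909 over all genes. In Adm+/- lungs 12 rows rose and 2 fell, where 12.8% of all genes rose and 12.2% fell, with a median of 0.317 over the members and -0.0131 over all genes. Rows whose 3 LPS libraries all lay above the 3 PBS libraries numbered 17 of 34 in WT (18.3% of all genes) and 17 of 34 in Adm+/- (26.6%). As these are whole lungs, more cells of a type and more RNA per cell cannot be told apart.

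The 10 members called in both genotypes, all higher, were Slc2a1, Slc2a3, Hk2, Hk3, Pfkfb3, Pdk4, Slc16a3, Hif3a, Bnip3 and Ndrg1. Aldoa and Gpi1 were called in WT alone, and Hif1a, Ldha (higher), Pfkm and Car9 (lower) in Adm+/- alone. The 2 genotypes have their own PBS controls, and the test of the difference between them is given further on.

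**Figure D1:**
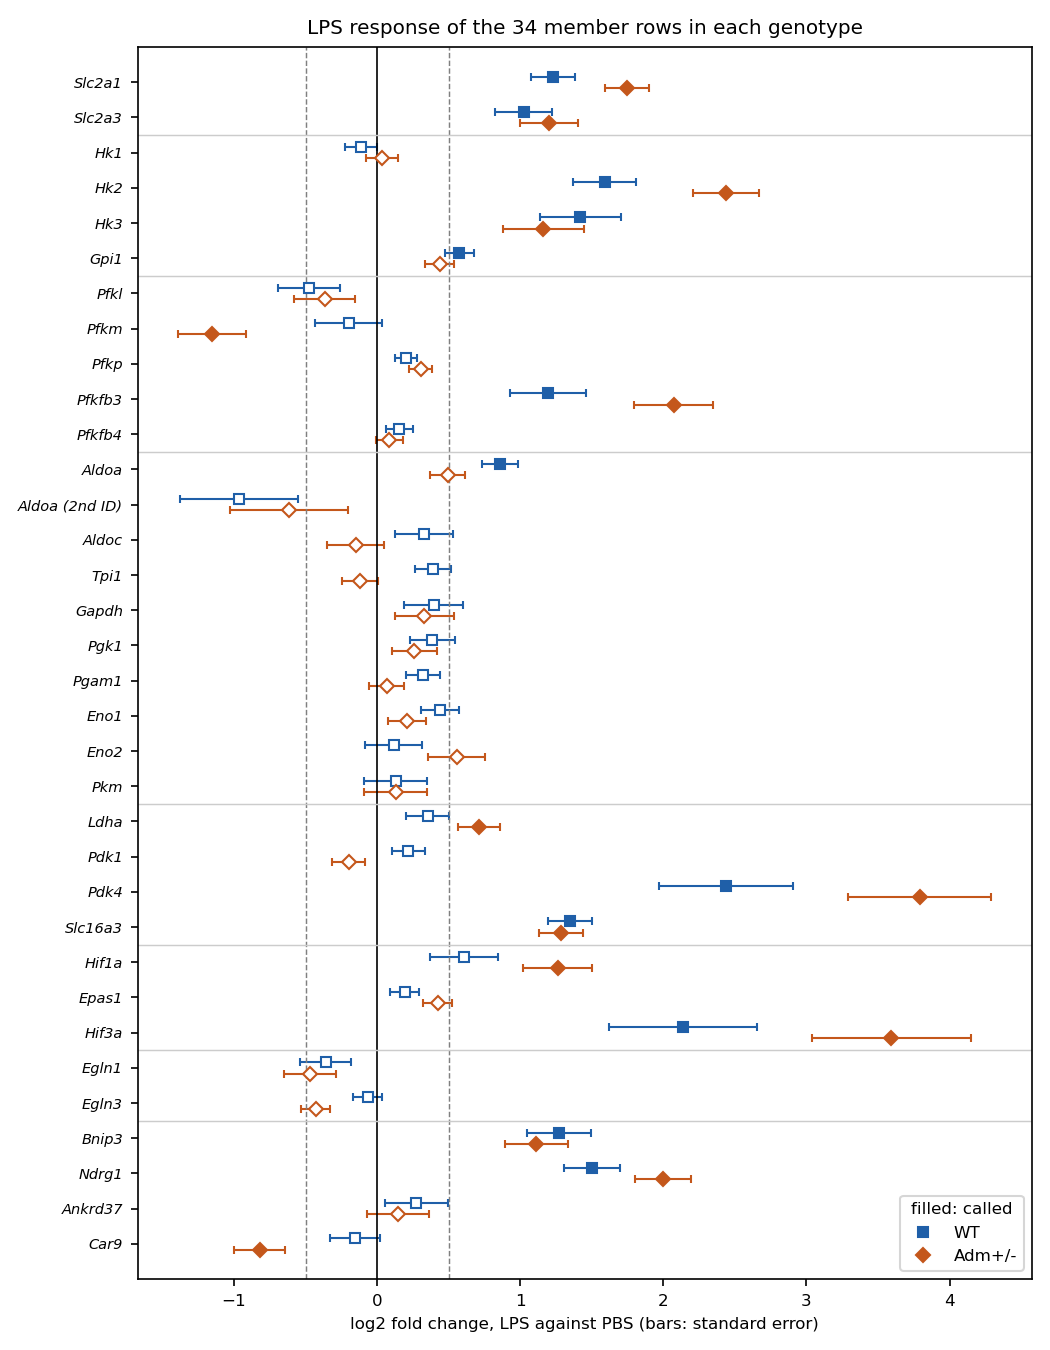
Log2 fold change of each of the 34 member rows after LPS against PBS (horizontal axis), in WT (squares) and Adm+/- (diamonds), with its standard error. Filled symbols passed the call, dashed lines mark 0.5 either way, grey lines separate roles, and "2nd ID" is the other gene ID of Aldoa. Pdk4 and Hif3a lie farthest to the right and Pfkm farthest to the left, in Adm+/-.

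Glucose enters cells through facilitative transporters, and both members of this role rose in both genotypes. CPM values are given throughout in the order of replicates 3, 4 and 5 (WT PBS), 9, 10 and 11 (WT LPS), 6, 7 and 8 (Adm+/- PBS) and 1, 2 and 12 (Adm+/- LPS). Slc2a1, the widespread basal transporter GLUT1, was at 14.4, 17.1 and 16.6 CPM in WT PBS and 47.3, 31.9 and 33.6 CPM in WT LPS, and at 15.4, 15.4 and 13.2 CPM in Adm+/- PBS and 52.4, 48.6 and 46.4 CPM in Adm+/- LPS. Every LPS library lay above every PBS library, a log2 fold change of 1.23 ± 0.15 in WT and 1.74 ± 0.16 in Adm+/- (edgeR adjusted p = 5e-04 and 5.91e-05). Slc2a3, the high-affinity transporter GLUT3 of neurons and white blood cells, was at 13.5, 19.1 and 12.9 CPM in WT PBS and 27.0, 30.9 and 34.6 CPM in WT LPS, and at 12.7, 11.1 and 10.8 CPM in Adm+/- PBS and 20.7, 33.6 and 25.3 CPM in Adm+/- LPS. The groups again did not overlap within a genotype, with log2 fold changes of 1.02 ± 0.20 and 1.20 ± 0.20 (edgeR adjusted p = 0.00499 and 0.00111).

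Hexokinases trap glucose in the cell by phosphorylating it, and 2 of the 3 measured isoforms, Hk2 and Hk3, rose in both genotypes. Hk2, the inducible isoform on mitochondria, was at 14.9, 24.5 and 18.2 CPM in WT PBS, 72.5, 56.8 and 43.5 CPM in WT LPS, 16.5, 14.6 and 10.9 CPM in Adm+/- PBS and 81.3, 74.9 and 70.7 CPM in Adm+/- LPS. It rose by a log2 fold change of 1.59 ± 0.22 in WT and 2.44 ± 0.23 in Adm+/- (edgeR adjusted p = 0.00086 and 6.66e-05), and the 3 WT LPS libraries spread over a wider range than the 3 Adm+/- LPS libraries. Hk3, the isoform of myeloid cells, was at 4.97, 6.16 and 8.83 CPM in WT PBS, 19.8, 13.6 and 19.8 CPM in WT LPS, 7.42, 7.23 and 3.66 CPM in Adm+/- PBS and 15.4, 12.1 and 13.5 CPM in Adm+/- LPS. No LPS library overlapped a PBS library, with log2 fold changes of 1.42 ± 0.28 and 1.16 ± 0.28 (edgeR adjusted p = 0.00582 and 0.00959). Hk1, the housekeeping isoform, stayed between 68.3 and 94.1 CPM in all 12 libraries, with its highest value in WT PBS replicate 5. The log2 fold changes of Hk1 were -0.11 ± 0.11 and 0.03 ± 0.11 (edgeR adjusted p = 0.487 and 0.863).

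Gpi1, which turns glucose 6-phosphate into fructose 6-phosphate, was at 115, 118 and 132 CPM in WT PBS, 200, 166 and 176 CPM in WT LPS, 111, 108 and 112 CPM in Adm+/- PBS and 160, 136 and 153 CPM in Adm+/- LPS. The groups did not overlap in either genotype. It was called in WT (log2 fold change 0.57 ± 0.10, edgeR adjusted p = 0.00295) and missed the 0.5 limit in Adm+/- (0.44 ± 0.10, edgeR adjusted p = 0.0073). Without WT LPS replicate 9 the WT value was 0.49 and fell under the limit, and without Adm+/- LPS replicate 2 the Adm+/- value was 0.50 and passed it.

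Neutrophil and macrophage marker levels moved with these rises. Of 16 tested neutrophil markers, 15 rose in WT and 16 in Adm+/-, and their summed level was 64.3 to 210 CPM in WT PBS, 1840 to 3250 CPM in WT LPS, 45.2 to 73.3 CPM in Adm+/- PBS and 1780 to 2120 CPM in Adm+/- LPS. Elane was at or under 3 counts in every PBS library, as was Mpo in Adm+/- PBS. Of 15 monocyte and macrophage markers, 12 rose in WT, and 11 rose and 1 fell in Adm+/-. The summed level of the latter list was 1060 to 1310 CPM in WT PBS and 1700 to 2340 CPM in WT LPS, against 1040 to 1260 CPM in Adm+/- PBS and 1740 to 2280 CPM in Adm+/- LPS. The part of added myeloid cells in the change of Hk3, Slc2a3 or any other member was not tested.

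Phosphofructokinase commits sugar to glycolysis, and the bifunctional enzymes of the Pfkfb family make its activator, fructose 2,6-bisphosphate. Pfkfb3, the isoform with the strongest kinase bias, was at 83.9, 94.6 and 72.7 CPM in WT PBS, 284, 186 and 104 CPM in WT LPS, 82.0, 75.9 and 80.3 CPM in Adm+/- PBS and 315, 355 and 331 CPM in Adm+/- LPS. It rose by a log2 fold change of 1.19 ± 0.27 in WT and 2.07 ± 0.27 in Adm+/- (edgeR adjusted p = 0.00959 and 0.000286). The WT LPS libraries differed widely, from little above the PBS range in replicate 11 to near the Adm+/- level in replicate 9. Leaving out WT LPS replicate 9 lowered the WT value to 0.79 and kept the call, and in a fit of the 6 WT libraries alone it was 1.19 with an edgeR adjusted p of 0.0702. Pfkfb4, the related isoform, stayed between 35.6 and 45.6 CPM and was called in neither genotype (log2 fold change 0.16 ± 0.09 and 0.08 ± 0.09).

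Pfkm, the muscle-type phosphofructokinase, fell in Adm+/- lungs. It was at 49.0, 50.6 and 92.8 CPM in WT PBS, 48.2, 70.2 and 48.9 CPM in WT LPS, 64.4, 51.8 and 49.8 CPM in Adm+/- PBS and 25.4, 23.7 and 25.6 CPM in Adm+/- LPS. The 3 Adm+/- LPS libraries lay below all other 9 libraries and close together. The log2 fold change was -1.15 ± 0.24 in Adm+/- (edgeR adjusted p = 0.00396) and -0.20 ± 0.23 in WT (edgeR adjusted p = 0.562), where WT PBS replicate 5 was the highest library. Without replicate 5 the WT value was 0.16 (edgeR adjusted p = 0.544), and without Adm+/- PBS replicate 6 the Adm+/- value was -1.04.

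Pfkl, the liver-type isoform, was called in neither genotype, at 70.2, 81.1 and 133 CPM in WT PBS and 64.0 to 70.9 CPM in WT LPS, and at 108, 77.3 and 72.4 CPM in Adm+/- PBS and 62.7 to 68.8 CPM in Adm+/- LPS. Both PBS libraries that stood apart were the highest of their group for Pfkl, and without WT PBS replicate 3 Pfkl was called lower in WT. Without the 2 libraries that stood apart its log2 fold changes were -0.16 and -0.17 (edgeR adjusted p = 0.215 and 0.158). Pfkp, the platelet-type isoform, was at 50.9 to 54.2 CPM in WT PBS, 58.4 to 63.8 CPM in WT LPS, 52.1 to 53.4 CPM in Adm+/- PBS and 64.5 to 66.0 CPM in Adm+/- LPS. Its log2 fold changes of 0.20 ± 0.08 and 0.30 ± 0.08 were under the limit (edgeR adjusted p = 0.0851 and 0.0126), though the groups did not overlap.

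The enzymes of lower glycolysis, from aldolase to pyruvate kinase, gave 1 called row of 10 in WT and 0 of 10 in Adm+/-, with median log2 fold changes of 0.356 and 0.169. These counts are near the share of all genes called higher in WT (10.5%) and under that in Adm+/- (12.8%). Aldoa, the aldolase that splits fructose 1,6-bisphosphate, was the called one. It was at 166, 164 and 210 CPM in WT PBS, 355, 326 and 296 CPM in WT LPS, 186, 167 and 151 CPM in Adm+/- PBS and 247, 217 and 245 CPM in Adm+/- LPS. The groups did not overlap in either genotype, with log2 fold changes of 0.86 ± 0.13 in WT (edgeR adjusted p = 0.00105) and 0.49 ± 0.12 in Adm+/- (edgeR adjusted p = 0.0115), the latter just under the limit of 0.5. Without Adm+/- PBS replicate 6 the Adm+/- value was 0.56 and passed, and Aldoa was also called in Adm+/- with RLE factors, by DESeq2 and without Adm+/- LPS replicate 2. The other Aldoa ID (ENSMUSG00000114515) was sparse, at 0.52 to 2.53 CPM, and was not called.

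Triose phosphate isomerase, Tpi1, was at 78.8, 78.0 and 105.4 CPM in WT PBS, 118, 120 and 106 CPM in WT LPS, 89.0, 82.1 and 73.7 CPM in Adm+/- PBS and 78.8, 73.5 and 73.1 CPM in Adm+/- LPS. All WT LPS libraries lay above the WT PBS libraries, by little for replicate 5, whereas the Adm+/- groups overlapped. The log2 fold change of 0.39 ± 0.13 in WT was under the limit (edgeR adjusted p = 0.0456), and that of -0.12 ± 0.13 in Adm+/- did not pass (edgeR adjusted p = 0.508). Eno1, the main enolase, was at 152, 155 and 197 CPM in WT PBS and 239, 215 and 228 CPM in WT LPS, and its log2 fold change of 0.44 ± 0.13 was under the limit as well (edgeR adjusted p = 0.0374). In Adm+/- lungs Eno1 was at 152 to 201 CPM with PBS and 188 to 206 CPM with LPS (0.21 ± 0.13, edgeR adjusted p = 0.259). Without the 2 PBS libraries that stood apart, Tpi1 and Eno1 passed in WT with log2 fold changes of 0.55 and 0.56.

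The remaining 6 symbols of this role were called in neither genotype. Gapdh, the dehydrogenase that makes NADH, ranged from 89.5 to 189 CPM over the 12 libraries, Pgk1, which makes the first ATP, from 60.02 to 102 CPM, and the mutase Pgam1 from 27.2 to 37.8 CPM. Pkm, which makes pyruvate, ranged from 257 to 508 CPM, with WT PBS replicate 5 the highest of all, and gave log2 fold changes of 0.13 ± 0.22 in both genotypes (edgeR adjusted p = 0.697 and 0.695). Without both libraries that stood apart the Pkm values were 0.46 and 0.34, still under the limit (edgeR adjusted p = 0.00751 and 0.0132). The neuronal enolase Eno2 was at 4.58 to 7.84 CPM and the brain aldolase Aldoc at 2.72 to 4.22 CPM. Eno2 was above its 3 Adm+/- PBS values in all 3 Adm+/- LPS libraries (log2 fold change 0.56 ± 0.20, edgeR adjusted p = 0.0532), and it was called by DESeq2, by limma-voom and without WT PBS replicate 4 or 5. Without the 2 libraries that stood apart the count of called rows was 16 higher and 0 lower in WT, which added Eno1, Gapdh, Pgk1 and Tpi1, and 15 higher and 2 lower in Adm+/-, which added Aldoa, Eno2 and Gapdh. In the same fit 1594 of all 16100 genes rose and 871 fell in WT, and 2050 rose and 1871 fell in Adm+/-. Of the 10 rows of lower glycolysis, Aldoa, Eno1, Gapdh, Pgk1 and Tpi1 were thus called in WT, and Aldoa, Eno2 and Gapdh in Adm+/-.

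Pyruvate dehydrogenase kinases act inside mitochondria and block the conversion of pyruvate to acetyl-CoA, lactate dehydrogenase turns it into lactate, and MCT4 exports lactate. Pdk4, the kinase known from fasting and glucocorticoid exposure, was at 8.85, 22.2 and 10.3 CPM in WT PBS, 112, 84.6 and 26.4 CPM in WT LPS, 4.89, 6.69 and 6.28 CPM in Adm+/- PBS and 96.1, 72.5 and 80.1 CPM in Adm+/- LPS. It rose by a log2 fold change of 2.43 ± 0.47 in WT and 3.79 ± 0.50 in Adm+/- (edgeR adjusted p = 0.00471 and 0.000286). WT LPS replicate 11 lay only just above WT PBS replicate 4, while the Adm+/- groups were far apart. Pdk1, the HIF-responsive kinase, was at 29.89 to 33.04 CPM in WT PBS, 32.72 to 39 CPM in WT LPS, 28.29 to 33.03 CPM in Adm+/- PBS and 24.2 to 29.7 CPM in Adm+/- LPS, and was called in neither (log2 fold change 0.22 ± 0.12 and -0.20 ± 0.12).

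Slc16a3, the lactate exporter whose promoter window is shown above, was at 12.9, 13.7 and 17.5 CPM in WT PBS, 40.1, 32.1 and 39.9 CPM in WT LPS, 13.6, 13.5 and 11.7 CPM in Adm+/- PBS and 33.5, 26.6 and 34.4 CPM in Adm+/- LPS. The log2 fold changes were 1.35 ± 0.16 and 1.28 ± 0.16 (edgeR adjusted p = 0.000316 and 0.000185), and no LPS library overlapped a PBS library. Ldha, the lactate dehydrogenase subunit that favors lactate, was at 167, 192 and 223 CPM in WT PBS, 257, 284 and 203 CPM in WT LPS, 187, 168 and 149 CPM in Adm+/- PBS and 260, 304 and 263 CPM in Adm+/- LPS. The Adm+/- groups were separate (log2 fold change 0.71 ± 0.15, edgeR adjusted p = 0.00423). The WT groups overlapped through replicates 5 and 11 (0.35 ± 0.15, edgeR adjusted p = 0.109).

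**Figure D2:**
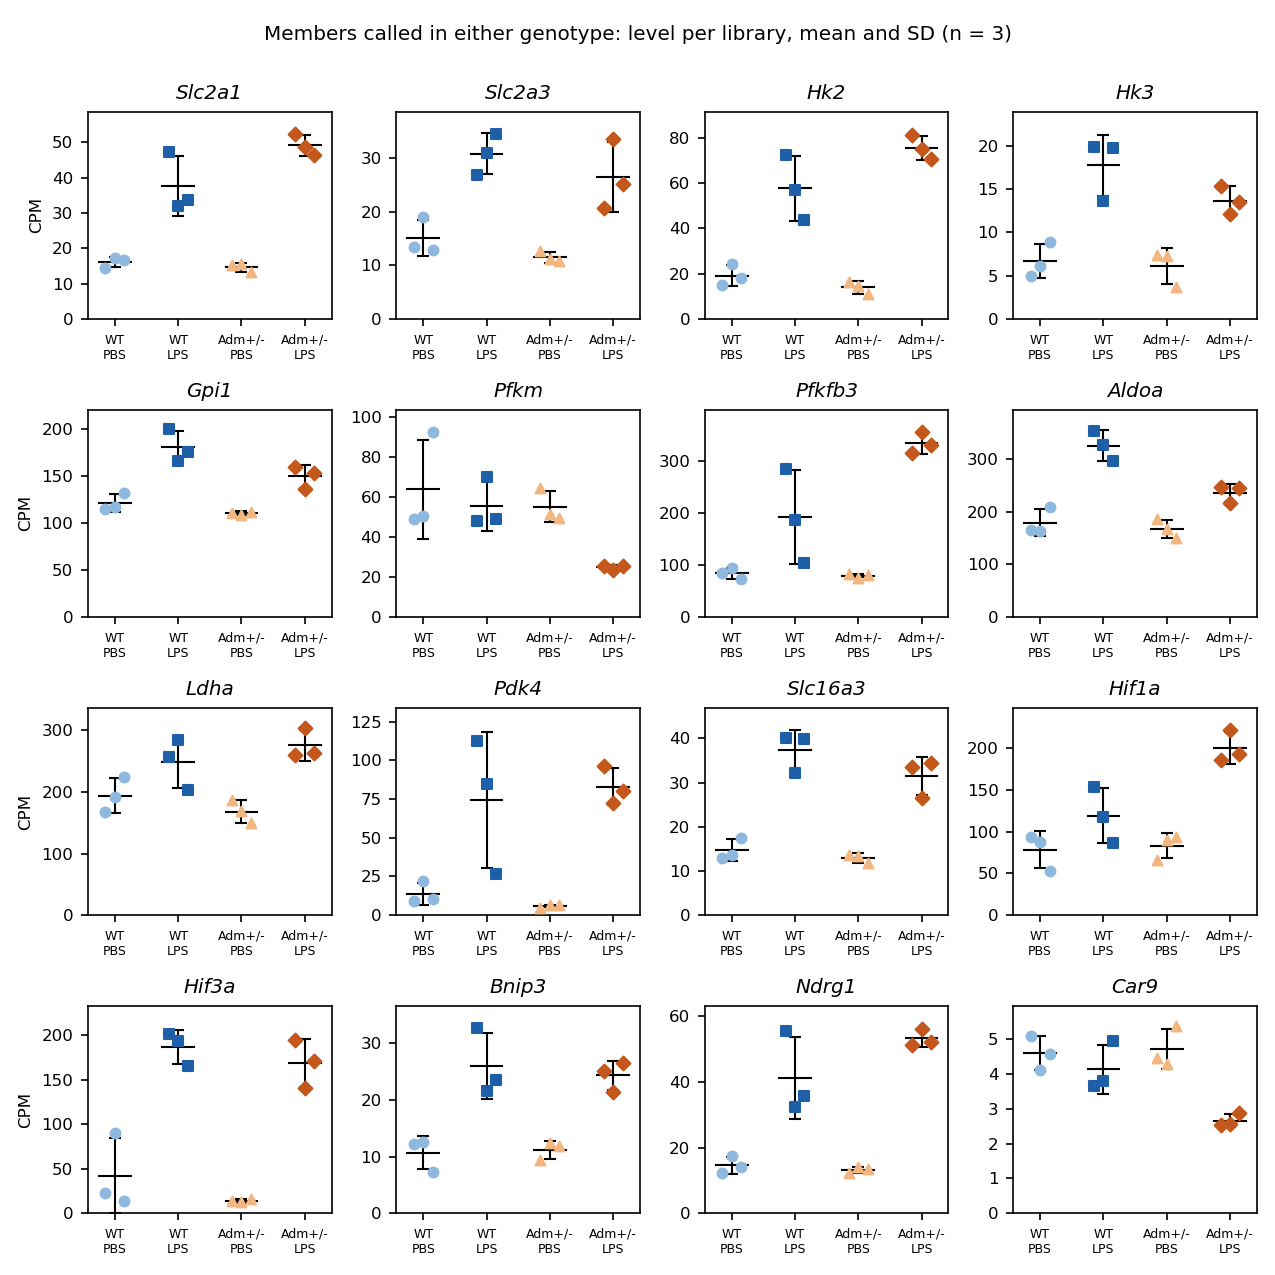
TMM-scaled CPM (vertical axes, starting at 0) of the 16 members called in either genotype, 1 point per library in the 4 groups, with the mean and SD of 3 libraries. Pfkfb3 in WT LPS spread from 104 to 284 CPM, while in Adm+/- LPS its 3 libraries sat between 315 and 355 CPM. Pfkm and Car9 were lowest in the 3 Adm+/- LPS libraries.

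All 3 HIF alpha subunits were measured, and per length of transcript Epas1 was by far the most abundant. Epas1 (HIF-2 alpha, the subunit of lung endothelium) had a median of 289 CPM per kb over the 12 libraries, against 17.3 for Hif3a and 15.95 for Hif1a. By group, mean Hif3a was 6.33 (WT PBS), 27.85 (WT LPS), 2.09 (Adm+/- PBS) and 25.2 (Adm+/- LPS) CPM per kb. Mean Hif1a was 13.3, 20.2, 14.1 and 33.9 CPM per kb in the same order. Hif1a, the oxygen-regulated subunit of most cells, was at 94.2, 87.6 and 53.1 CPM in WT PBS, 153, 118 and 86.6 CPM in WT LPS, 66.3, 89.4 and 94.0 CPM in Adm+/- PBS and 185, 221 and 192 CPM in Adm+/- LPS. All Adm+/- LPS libraries lay above every other library, with a log2 fold change of 1.26 ± 0.24 in Adm+/- (edgeR adjusted p = 0.00244). The WT groups overlapped (0.61 ± 0.24, edgeR adjusted p = 0.0889), and the WT value was 0.79 and passed without WT LPS replicate 11, but was 0.38 without WT LPS replicate 9 and 0.39 without WT PBS replicate 5.

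Epas1 was at 1482 to 1620 CPM in WT PBS, 1611 to 1912 CPM in WT LPS, 1352 to 1600 CPM in Adm+/- PBS and 1865 to 2157 CPM in Adm+/- LPS. Its log2 fold change was 0.19 ± 0.10 in WT and 0.42 ± 0.10 in Adm+/-, under the limit in both (edgeR adjusted p = 0.197 and 0.00968). Of 13 endothelial markers, 0 rose and 2 fell in WT, and 1 rose and 3 fell in Adm+/-. Hif3a, whose products include inhibitors of the other HIFs, was at 23.3, 90.6 and 13.4 CPM in WT PBS, 202, 193 and 166 CPM in WT LPS, 13.5, 12.5 and 16.1 CPM in Adm+/- PBS and 195, 141 and 171 CPM in Adm+/- LPS. It rose by a log2 fold change of 2.14 ± 0.52 in WT and 3.59 ± 0.56 in Adm+/- (edgeR adjusted p = 0.0145 and 0.000709), and WT PBS replicate 4 was the one PBS library near the LPS range. Without that library the WT value was 3.34 (edgeR adjusted p = 4.44e-05), and in a fit of the 6 WT libraries alone it was 2.13 with an edgeR adjusted p of 0.0838.

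Glucocorticoid response genes moved with Hif3a and Pdk4. Of the 14 listed genes, which include Fkbp5, Tsc22d3, Per1, Zbtb16 and the neutrophil granule gene Lcn2, 10 rose in WT and 12 in Adm+/-, with median log2 fold changes of 1.57 and 2.30. Their summed level was 953, 1673 and 903 CPM in WT PBS, 4285, 3636 and 2506 CPM in WT LPS, 930, 929 and 1063 CPM in Adm+/- PBS and 4963, 4499 and 4515 CPM in Adm+/- LPS. WT PBS replicate 4 was thus the highest PBS library, and WT LPS replicate 11 the lowest LPS library, for this list and for Pdk4. The summed neutrophil markers were also highest in WT PBS replicate 4 among PBS libraries, at 210 CPM against 45.2 to 73.3 CPM in the others. Zbtb16 alone was at 180 CPM in WT PBS replicate 4 against 10.8 to 18.8 CPM in the other 5 PBS libraries. Of 20 genes known from fasting and PPAR signaling, 4 rose and 1 fell in WT, and 5 rose and 2 fell in Adm+/-, where 10.5% of all genes rose and 7.09% fell in WT, and 12.8% rose and 12.2% fell in Adm+/-. Corticosterone and food intake were not measured here, and their part in these rises was not tested.

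**Figure D3:**
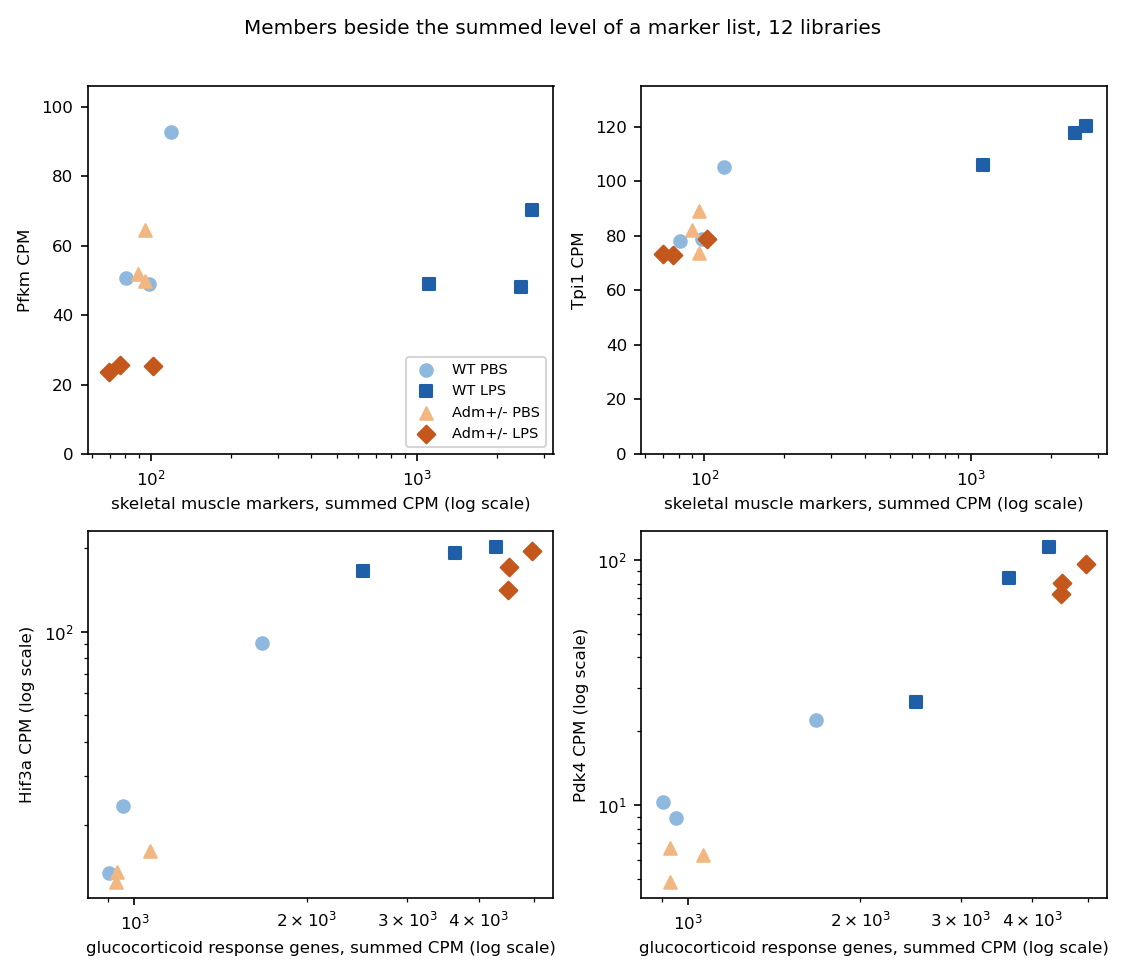
CPM of Pfkm and Tpi1 against the summed CPM of 18 skeletal muscle markers, and of Hif3a and Pdk4 against the summed CPM of 14 glucocorticoid response genes, 1 point per library and 1 symbol per group (log axes as labelled). WT PBS replicate 4, at 1673 CPM of the glucocorticoid list, lies between the other PBS libraries and the LPS libraries, and the muscle sum is 1110 to 2710 CPM in WT LPS against 69.7 to 119 CPM in the other groups.

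The prolyl hydroxylases Egln1 and Egln3, which mark HIF alpha subunits in the presence of oxygen, were called in neither genotype. Egln1 was at 76.7, 73.4 and 122 CPM in WT PBS and 65.7 to 73.3 CPM in WT LPS, and at 99.0, 76.8 and 76.0 CPM in Adm+/- PBS and 59.2 to 63.1 CPM in Adm+/- LPS. Its log2 fold changes were -0.36 ± 0.18 and -0.47 ± 0.18 (edgeR adjusted p = 0.168 and 0.0663), with both libraries that stood apart the highest of their group. Leaving these out gave -0.09 and -0.33 for Egln1 (edgeR adjusted p = 0.418 and 0.00758). Egln3, a HIF target itself, was at 15.6 to 15.9 CPM in WT PBS, 14.8 to 15.2 CPM in WT LPS, 17.3 to 18.4 CPM in Adm+/- PBS and 12.6 to 14.3 CPM in Adm+/- LPS. The Adm+/- groups were separate, yet the log2 fold change of -0.43 ± 0.10 stayed within the limit (edgeR adjusted p = 0.00845).

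Among the other HIF targets, Ndrg1 was at 12.3, 17.4 and 14.0 CPM in WT PBS, 55.6, 32.5 and 35.7 CPM in WT LPS, 12.4, 14.2 and 13.4 CPM in Adm+/- PBS and 51.4, 56.3 and 52.3 CPM in Adm+/- LPS. It rose by log2 fold changes of 1.5 ± 0.20 and 2.0 ± 0.20 (edgeR adjusted p = 0.000603 and 7.68e-05), with no overlap. Bnip3, a mitophagy receptor, was at 12.3, 12.6 and 7.35 CPM in WT PBS, 32.6, 21.7 and 23.6 CPM in WT LPS, 9.41, 12.4 and 11.9 CPM in Adm+/- PBS and 25.1, 21.4 and 26.5 CPM in Adm+/- LPS. Its groups did not overlap either, with log2 fold changes of 1.27 ± 0.22 and 1.11 ± 0.22 (edgeR adjusted p = 0.00277 and 0.00305).

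Car9, the membrane carbonic anhydrase often used as a marker of hypoxia, went the other way in Adm+/- lungs. It was low throughout, at 5.09, 4.12 and 4.57 CPM in WT PBS, 3.67, 3.78 and 4.94 CPM in WT LPS, 4.47, 4.29 and 5.37 CPM in Adm+/- PBS and 2.54, 2.56 and 2.89 CPM in Adm+/- LPS. The 3 Adm+/- LPS libraries lay below all others, a log2 fold change of -0.82 ± 0.18 (edgeR adjusted p = 0.00526), while the WT groups overlapped (-0.16 ± 0.18, edgeR adjusted p = 0.544). Ankrd37, a small HIF target with ankyrin repeats, stayed between 1.84 and 3.17 CPM and was called in neither genotype. Of the 4 genes in this role 2 rose in each genotype, where 10.5% (WT) and 12.8% (Adm+/-) of all genes rose, and 1 fell in Adm+/-, where 12.2% of all genes fell.

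**Figure D4:**
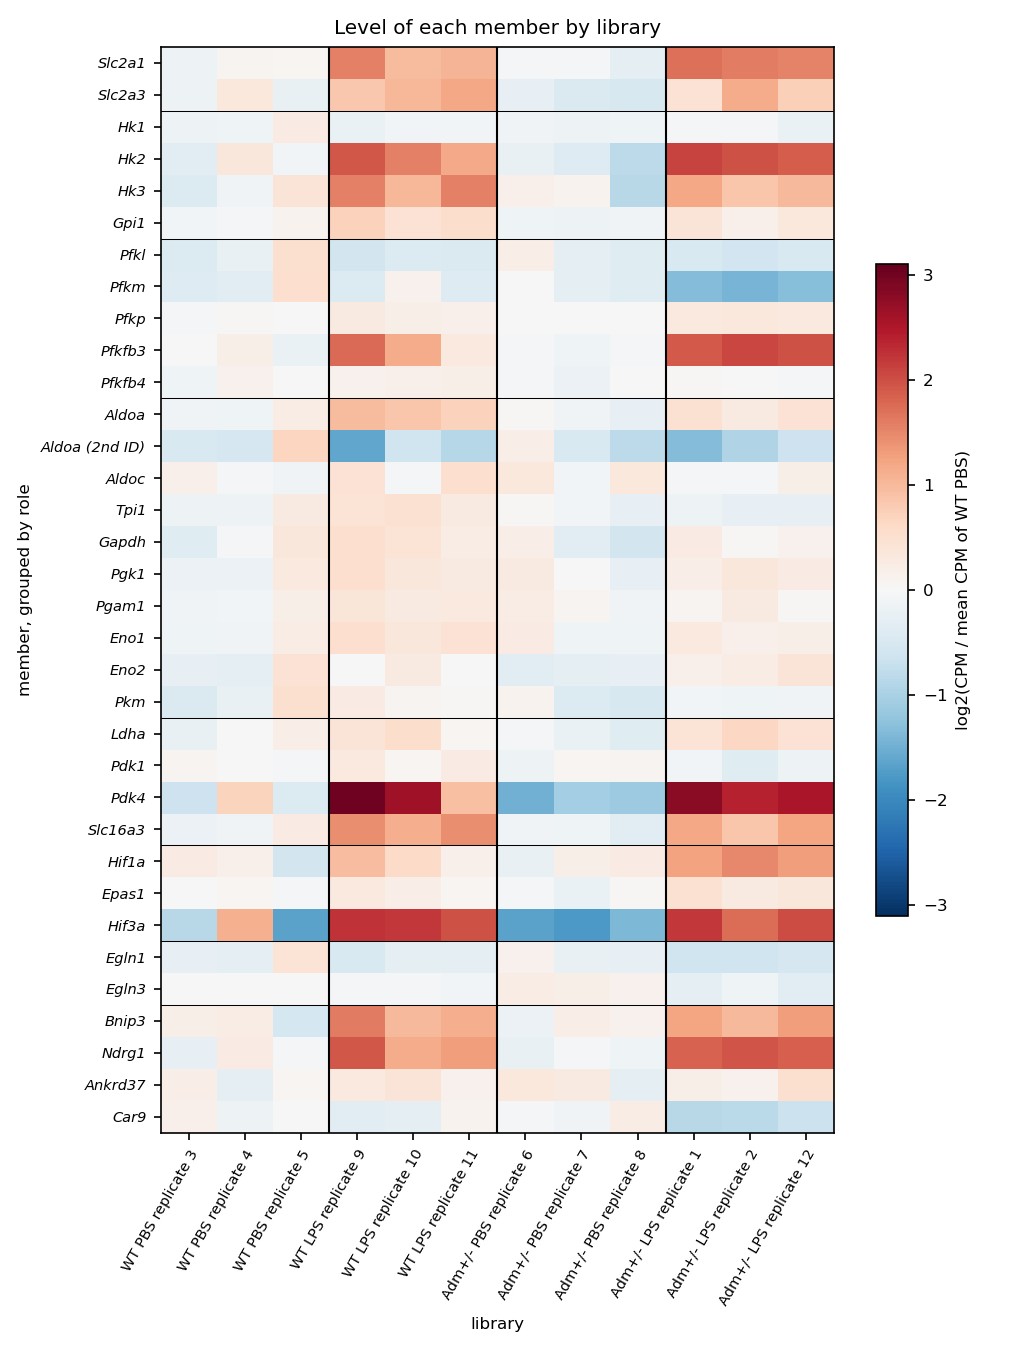
Each cell is the log2 ratio of a member's CPM in 1 library to its mean CPM in WT PBS, with 34 rows grouped by role and 12 libraries in columns, on a color scale symmetric about 0 that holds all values (-1.77 to 3.03). Columns of the 6 LPS libraries are red in the rows of Hk2, Pfkfb3, Pdk4, Hif3a and Ndrg1, weaker in WT LPS replicate 11 for Pfkfb3 and Pdk4.

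The call combines a test against 0 with a limit on the size. When the size itself was tested, with limma-voom treat against a log2 fold change of 0.5, 5 members kept the call in WT (Slc2a1, Hk2, Slc16a3, Hif3a and Ndrg1) and 9 in Adm+/- (Slc2a1, Slc2a3, Hk2, Pfkfb3, Pdk4, Slc16a3, Hif1a, Hif3a and Ndrg1), all higher. By the same rule 2.92% of all genes were higher in WT and 5.17% in Adm+/-. Pfkm and Car9 were not among them (limma adjusted p = 0.11 and 0.373).

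The response to LPS was not shown to differ between the genotypes for any member. In the interaction test 0 of 34 rows were called, as against 0.145% of all genes, and the lowest edgeR adjusted p of a member was 0.467. At an unadjusted p under 0.05 stood 8 member rows and 1247 of all genes, and DESeq2 and limma-voom called 0 members as well. The 5 members with the smallest p were Tpi1 (log2 difference -0.51 ± 0.18, edgeR adjusted p = 0.467), Pfkm (-0.95 ± 0.33, 0.467), Hk2 (0.85 ± 0.31, 0.491), Car9 (-0.66 ± 0.25, 0.508) and Pdk1 (-0.42 ± 0.16, 0.523), where a positive value means a larger rise in Adm+/-. A miss at 3 libraries a group does not show that the responses were alike. With 1 library left out, the Pfkm value ran from -1.30 (without WT PBS replicate 5) to -0.75 (without WT LPS replicate 10). Hk2 ran from 0.63 to 1.05, Tpi1 from -0.66 to -0.44, Car9 from -0.75 to -0.51 and Pdk1 from -0.49 to -0.33.

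With PBS, no member was called between Adm+/- and WT. The count was 0 of 34 rows, as for all genes (0%), and at an unadjusted p under 0.05 stood 2 member rows and 344 of all genes (edgeR). Hif3a (-1.60 ± 0.52), Pdk4 (-1.20 ± 0.47), Hk2 (-0.45 ± 0.22), Slc2a3 (-0.40 ± 0.20) and Egln3 (0.18 ± 0.10) had the smallest p (edgeR adjusted p = 0.999 for each), with negative values lower in Adm+/-. The first 4 shrank without WT PBS replicate 4, most of all Hif3a, to differences of -0.40 for Hif3a, -0.68 for Pdk4, -0.24 for Hk2 and -0.20 for Slc2a3.

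After LPS, 2 members were lower in Adm+/- than in WT lungs and 0 were higher, where 1.72% of all genes were lower and 0.327% higher. Pfkm, whose Adm+/- LPS libraries lay at 23.7 to 25.6 CPM against 48.2 to 70.2 CPM in WT LPS, had a log2 difference of -1.16 ± 0.24 (edgeR adjusted p = 0.0312). Tpi1, at 73.1 to 78.8 CPM against 106 to 120 CPM, had -0.61 ± 0.13 (edgeR adjusted p = 0.0318). Each call did not hold in 7 of 12 fits with a library removed. Both were lost without WT LPS replicate 10 or 11, Adm+/- PBS replicate 7, or Adm+/- LPS replicate 1, 2 or 12, and besides these Pfkm without Adm+/- PBS replicate 8 and Tpi1 without WT LPS replicate 9. The Pfkm difference kept a value of -1.26 to -0.96, with an edgeR adjusted p of 0.0607 without WT LPS replicate 10 and up to 0.154 without Adm+/- LPS replicate 2. Tpi1 stayed at -0.66 to -0.57, with an edgeR adjusted p up to 0.156.

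Aldoa (-0.46 ± 0.12), Pdk1 (-0.42 ± 0.12) and Car9 (-0.63 ± 0.18) came next without passing (edgeR adjusted p = 0.0816, 0.0872 and 0.0954). Without WT LPS replicate 9, the library with the highest Slc2a1, Ndrg1 and Pfkfb3 of its group, those 3 genes were called higher in Adm+/- LPS, Pfkm stayed called and Tpi1 was lost. DESeq2 called Car9 lower and Hif1a higher in Adm+/- LPS, and Hif1a was also called higher when the 2 PBS libraries that stood apart were left out.

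Skeletal muscle markers moved with this comparison. Of 17 tested markers, 16 rose in WT after LPS (median log2 fold change 5.98) and 16 were lower in Adm+/- LPS than in WT LPS. In Adm+/- lungs 1 rose and 1 fell after LPS. The summed level of the list was 80.8 to 119 CPM in WT PBS, 1110 to 2710 CPM in WT LPS, 89.8 to 95.4 CPM in Adm+/- PBS and 69.7 to 102 CPM in Adm+/- LPS. Tnnc2 was at or under 3 counts in every library of the 3 other groups. Squamous epithelium markers also rose in WT LPS, 9 of 11 tested, summed at 3557, 167 and 1898 CPM against 79.6 to 172 CPM in the other groups. The part of muscle or squamous tissue in the levels of Pfkm, Tpi1, Aldoa or other members was not tested.

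The wider pathways were read from lists of genes that are no members. Of 28 other genes of glycolysis and gluconeogenesis, 6 rose and 2 fell in WT and 7 rose and 2 fell in Adm+/-, where 10.5% of all genes rose and 7.09% fell in WT, and 12.8% rose and 12.2% fell in Adm+/-. The muscle-type enzymes Fbp2 (log2 fold change 3.61 ± 0.39) and Eno3 (1.68 ± 0.20) led in WT, where Fbp2 was at 2.99 to 7.61 CPM and Eno3 at 46.3 to 80.1 CPM. Eno3 was at 15.9 to 16.7 CPM in Adm+/- LPS, within or below its PBS range of 16.04 to 23.96 CPM. The lysosomal glucose transporter Slc2a6 rose in both genotypes (1.22 ± 0.21 and 1.39 ± 0.21), the aldose mutarotase Galm fell in both (-0.65 ± 0.15 and -0.90 ± 0.15), the mitochondrial Pck2 fell in WT (-0.72 ± 0.20), and in Adm+/- Fbp2 (1.37 ± 0.43) and Hkdc1 (1.02 ± 0.24) rose and Bpgm (-0.75 ± 0.24) fell. Pck2 was at 56.5, 71.2 and 104.9 CPM in WT PBS, against a mean of 46.9 CPM in WT LPS. Its highest library was WT PBS replicate 5, which stood apart, and its fall without that library was not examined.

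Of 15 further genes of pyruvate dehydrogenase and lactate transport, 1 rose in WT and 2 in Adm+/-: the lactate carrier Slc16a1 in both (log2 fold change 0.76 ± 0.16 and 1.01 ± 0.16) and pyruvate carboxylase, Pcx, in Adm+/- (1.13 ± 0.19). Of 9 pentose phosphate genes, 2 rose in WT, G6pdx (0.95 ± 0.15) and Pgd (0.58 ± 0.10), and 3 in Adm+/-, H6pd (0.88 ± 0.13), G6pdx (0.73 ± 0.15) and Pgd (0.71 ± 0.10). Of 40 other HIF pathway and target genes, 8 rose and 2 fell in WT and 9 rose and 4 fell in Adm+/-. The shares of all genes given above (10.5% higher and 7.09% lower in WT, 12.8% and 12.2% in Adm+/-) apply to these 3 lists too, and the counts that rose for pyruvate and lactate and those that fell for HIF are near or under them. Hmox1 (1.93 ± 0.23 and 1.87 ± 0.23) and Nos2 (1.27 ± 0.31 and 2.03 ± 0.31) rose in both. Arnt2, a beta subunit of neurons, fell in both (-1.38 ± 0.21 and -0.90 ± 0.21), the angiogenic factor Vegfa fell in WT (-0.51 ± 0.13), and Car12 (-1.03 ± 0.30) and Vldlr (-0.92 ± 0.16) fell in Adm+/-. All of these passed the edgeR call named above. Vegfa, just past the limit, was at 613, 660 and 854 CPM in WT PBS and 436, 525 and 532 CPM in WT LPS. Its highest library was WT PBS replicate 5, which stood apart, and its fall without that library was not examined.

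Several members share sequence with a neighbor or a copy. Exons of Tpi1, Gapdh, Aldoa, Hk3, Pfkm and Pfkp overlap a gene on the opposite strand, respectively Spsb2, Iffo1, Fam57b, Unc5a, Senp1 and Pitrm1, Ankrd37 overlaps Ufsp2 and Lrp2bp, Hk1 overlaps Hk1os, and Slc2a1, Ndrg1, Bnip3, Gpi1, Car9 and Hif1a overlap unnamed gene models on the opposite strand. Exons of Pfkm, Pkm and Hif1a overlap an unnamed gene model on the same strand. The library kit keeps strand, but the strand setting of the counting is not given in the sources used here, so reads of such pairs may not have been told apart. Gapdh, Pgk1, Pgam1, Eno1, Ldha and Aldoa have processed pseudogenes in the mouse, and their counts are uncertain to that degree.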

How the data were processed

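Per the labels and the methods of the study, the authors isolated total lung RNA, depleted rRNA, prepared directional libraries, trimmed reads with Trim Galore, mapped them with HISAT2 to mm10 and counted them per GENCODE gene with featureCounts. The deposited table holds raw counts, not normalized, and its 12 sample columns were all matched to labels. The members and all lists were chosen with earlier results of these data known.

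Counts of 15885 protein-coding genes that passed filterByExpr (72.4% of 21950) were fitted in 1 quasi-likelihood model of edgeR 4.0.16 with TMM factors and 1 coefficient per group (R 4.3.3, 8 residual degrees of freedom). All 5 contrasts were tested, with Benjamini-Hochberg adjustment over all genes. The SE is the log2 fold change divided by the square root of F. Levels are CPM on TMM library sizes, and levels per kb used the exon union of the mm10 annotation. The study itself used limma and reported 542 genes in WT and 1139 in Adm+/-, the counts that limma-voom treat gave here. The main rule called more, 2791 and 3968 genes. limma 3.58.1 and DESeq2 1.42.0 served as alternatives, beside RLE factors, other filters, all annotated genes, no fold limit, and each library left out. The fits were tested on simulated data. Named were all members, the 5 smallest p of each genotype comparison, and of each other pathway list the 3 largest called changes each way with a mean of at least 1 CPM, of which 1 gene is not reported here. Libraries of 1 group differed beyond counting noise (chi-square per degree of freedom 9.92 to 112), so none was the same library counted again. The check cannot tell whether 2 libraries came from the same animal. Depth of 22382535 to 38062873 counts per library gave at least 17 counts per member row.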

Additional observations from a re-analysis of the deposited data

How the results depend on the processing

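Over 57 followed log2 fold changes and 22 alternative fits, 1196 values kept their direction and side of the threshold, 32 lost a call, 19 gained one and 2 changed sign. The sign changed for Pfkm in WT, 0.16 without the 2 libraries that stood apart and -0.40 to 0.16 when single libraries were left out, with 0.16 without WT PBS replicate 5. With limma-voom treat the members called numbered 5 in WT, 9 in Adm+/- and 0 for Adm+/- against WT in LPS. That last count was 4 with DESeq2, 1 with all annotated genes and 0 to 4 with 1 library left out. Leaving out 1 library gave 11 to 15 members in WT and 14 to 16 in Adm+/-, and 0 members for the difference between genotypes and for the PBS comparison. Over all genes, the calls for the difference between genotypes numbered 23, against 168 with DESeq2, 1 with limma-voom, 0 with treat and 5 to 65 with 1 library left out. For Adm+/- against WT in LPS they numbered 325, against 803 with DESeq2, 79 with treat and 81 to 573 with 1 library left out. In WT they numbered 2791, against 542 with treat, 1152 with the 6 WT libraries alone and 1443 without WT LPS replicate 9, and in Adm+/- 3968, against 1139 with treat. No mean CPM moved by 1 SD or more under RLE factors (0 of 136), and no setting moved the median of all genes by over 0.1. The causes were not tested. No paired analysis was possible because the labels give no litters or pairs, and the replicate numbers only count the libraries.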
